A study of Mus musculus with 9 samples.

Results

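The 9 genes described here are the TGF-β family members and partners Tgfb1, Tgfb2, Tgfb3 and Inhba (ligand genes), Tgfbr1, Tgfbr2 and Tgfbr3 (receptor genes), Ltbp1 (a latency gene) and Tgfbi (a target gene). They were taken by name from the 56289 genes of the expression table, a choice made with earlier results of these data known, and all 9 passed the filter on low values. The study asked how Wang Bi tablet (WBT), a patented herbal medicine given for rheumatoid arthritis, alters the response of cultured cells to TNF-α. RNA from 9 cultures labelled RAW264.7, a mouse macrophage-like line given the strain label BALB/c, was sequenced as 3 libraries per group. The Con group was labelled untreated, and the study's description of the drug treatment, written for its ELISA plates, gives PBS to the controls and is the source of the TNF-α dose. The TNF-α group received recombinant human TNF-α at 20 ng/ml for 24 h. The TNF-α+WBT group received the same TNF-α with WBT at 1.0 μg/ml, for 24 h. The sample labels call the agent of the last group WBP, which was taken to be WBT. All 3 groups carry the label of the same cell line, with no genetic change, so that the libraries are repeats of 1 line.

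TGF-β is secreted in an inactive form. The mature dimer stays wrapped in its own propeptide, and a latent TGF-β binding protein such as the product of Ltbp1 ties this complex to the extracellular matrix until integrins, proteases or thrombospondin release it. The free ligand is bound by the type II receptor (Tgfbr2), which phosphorylates the type I receptor (Tgfbr1), and this in turn phosphorylates SMAD transcription factors that move to the nucleus with Smad4. In macrophages and fibroblasts the pathway is known for damping inflammatory responses and for driving the production of matrix.

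The labelled cell type was checked against marker genes. Of 18 macrophage markers, 1 (Cd14) exceeded 1 FPKM in every library, and Adgre1, Cybb, Ctss, Itgam, Ptprc, Spi1 and Tyrobp had no value above 0 anywhere. FPKM is the number of fragments of a transcript divided by its length and by the library's total. The summed level of the macrophage list was 6.37 to 7.83 FPKM in Con, 8.41 to 9.26 in TNF-α and 8.57 to 9.74 in TNF-α+WBT. By contrast 14 of 18 fibroblast markers and 10 of 14 Schwann cell markers exceeded 1 FPKM in all libraries. The data therefore go against the macrophage label, and the samples are called cultures from here on. Depth, estimated from the low values of the table, was 16840000 to 26040000 fragments per library and was lowest in the TNF-α+WBT group (median 18300000, against 21540000 in Con and 21060000 in TNF-α).

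Of the sequences upstream of these genes, those of Tgfbi and of Ltbp1 are shown, because Tgfbi gave the largest change among the 9 genes and because Ltbp1 was read from 2 separate start regions. They come from the RefSeq promoter table for GRCm38.p6 and are all on the plus strand. Capitals mark the SMAD element CAGAC (here always as its reverse complement GTCTG) and the GC box GGGCGG. The Tgfbi stretch is chr13:56609336-56609522, which ends before the first base that GENCODE M21 gives to any Tgfbi transcript. The Ltbp1 stretches are chr17:75005279-75005528, before the start of the long form, and chr17:75178531-75178780, before the start of the short form inside the gene.
Tgfbi: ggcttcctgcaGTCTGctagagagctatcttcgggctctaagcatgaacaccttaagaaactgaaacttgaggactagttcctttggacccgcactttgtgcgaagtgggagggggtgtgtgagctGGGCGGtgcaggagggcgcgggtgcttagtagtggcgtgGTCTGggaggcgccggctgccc
Ltbp1 long form: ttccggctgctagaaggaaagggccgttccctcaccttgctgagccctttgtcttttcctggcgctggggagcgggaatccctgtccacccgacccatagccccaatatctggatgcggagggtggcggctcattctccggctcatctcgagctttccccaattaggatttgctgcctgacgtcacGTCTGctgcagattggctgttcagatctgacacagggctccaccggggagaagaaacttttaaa
Ltbp1 short form: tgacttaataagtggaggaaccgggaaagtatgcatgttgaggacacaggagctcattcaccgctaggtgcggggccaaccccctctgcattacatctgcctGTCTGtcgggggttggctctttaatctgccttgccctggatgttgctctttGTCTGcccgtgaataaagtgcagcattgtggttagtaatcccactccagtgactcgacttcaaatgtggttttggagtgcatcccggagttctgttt

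The RefSeq table held 9 promoter entries for 7 of the 9 genes, and Tgfb3 and Tgfbr3 had no entry. In the 250 bases before the start, searched on both strands, the SMAD element was found in 6 of the 9 entries, where 42.2% of 32851 mouse promoters hold it. The GC box was found in 3 entries, those of Tgfb1, Tgfbr1 and Tgfbi, against 32.7% of all promoters. TATAAA was found in 2 entries, those of Tgfb2 and Inhba, against 12.4%. The AP-1 letters TGANTCA were in none of the 9 windows and in 6.75% of all promoters. None of these motifs overlapped another in the 3 printed stretches. With a motif as short as CAGAC, a match describes the letters only.

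TNF-α was compared with Con first, to describe the response of the pathway to the cytokine. Tgfbi and Tgfb3 were lower with TNF-α, and the other 7 genes did not pass the test. Of the 9 genes, 0 were called higher and 2 (22.2%), Tgfbi and Tgfb3, were called lower, at a Benjamini-Hochberg adjusted p under 0.05 from limma. In all 25417 genes tested 4.86% were called, 2.94% as higher and 1.93% as lower, and among genes averaging 1 FPKM or more 8.37% were called. The median log2 fold change of the 9 genes was -0.02, against 0.00 over all genes. The study's thresholds, an unadjusted p under 0.05 with a fold over 2, were applied here to the limma values, not to the study's own test. Only Tgfbi of the 9 was past both (2.42% of all genes were). At an unadjusted p under 0.05 alone, 5 of the 9 passed (Tgfbi, Tgfb3, Ltbp1, Tgfb2 and Tgfbr2), against 16.1% of all genes. The change in Tgfbi was the 9th smallest p of the whole table.

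**Figure D1:**
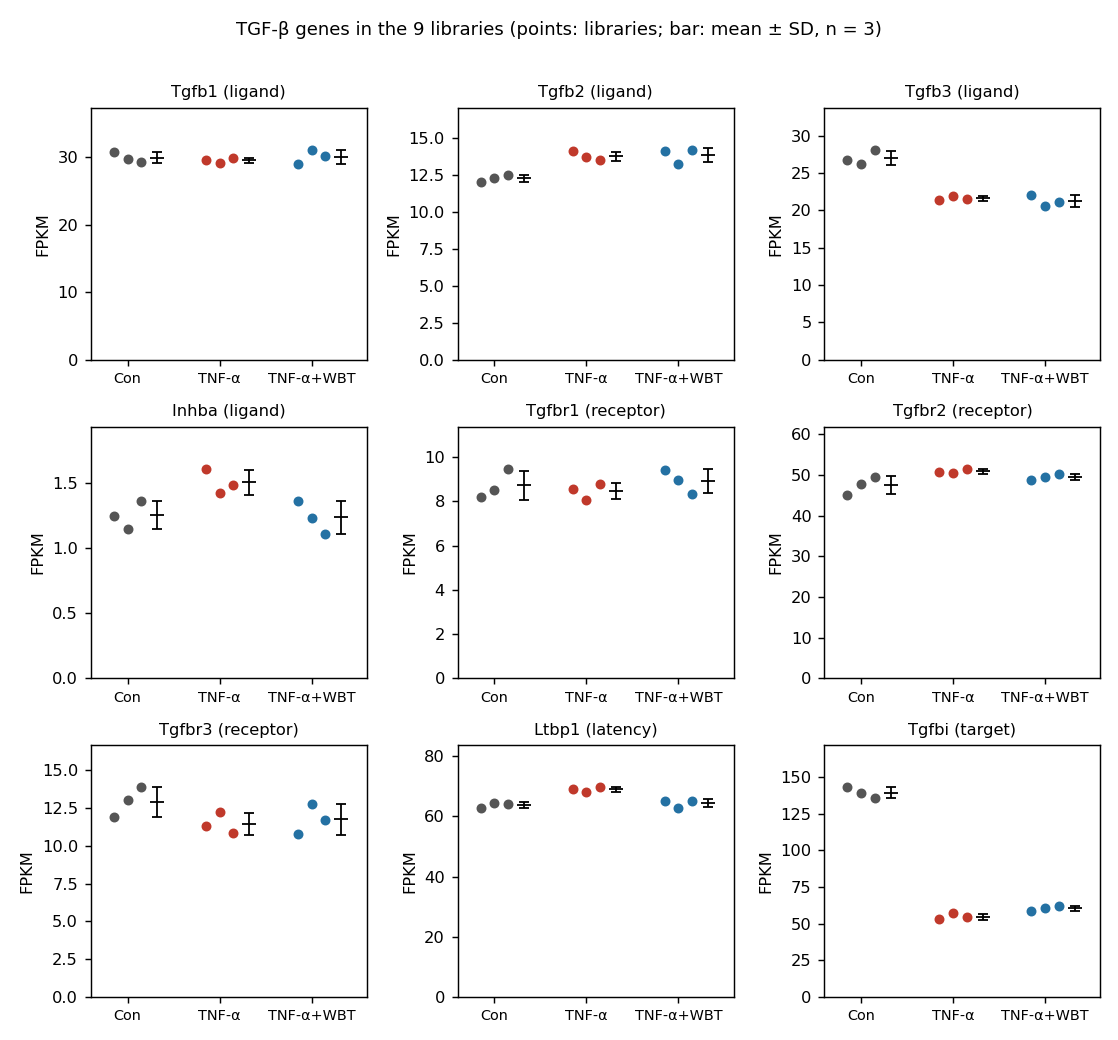
FPKM of the 9 genes in each library, from 0 upwards, with the 3 groups on the x axis and the mean ± SD (n = 3) as a bar beside the points. The Tgfbi points fall from 136 FPKM or more in Con to at most 62.2 FPKM in the other libraries, the Tgfb3 points of Con lie above all others, and the Tgfb1 points overlap in all groups.

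Among the ligands, Tgfb1 (the family's widely expressed ligand) was the most abundant and did not pass the test. Its levels were 30.8, 29.8 and 29.3 FPKM in the Con libraries, 29.6, 29.1 and 29.9 FPKM after TNF-α and 29.1, 31.1 and 30.2 FPKM after TNF-α+WBT. The 3 groups overlapped, and the log2 fold change of TNF-α against Con was -0.02 (95% interval -0.11 to 0.07, limma adjusted p = 0.872).

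Tgfb3, whose product signals through the same receptors and is known for its role in palate closure, was lower in both TNF-α groups. Its levels were 26.8, 26.2 and 28.0 FPKM in Con, 21.3, 21.9 and 21.5 FPKM after TNF-α and 22.1, 20.6 and 21.2 FPKM after TNF-α+WBT. Every Con library lay above every library of the other groups. TNF-α lowered the mean from 27.0 ± 0.921 to 21.6 ± 0.319 FPKM (SD, n = 3 each). On the log2 scale this was -0.32 (SE 0.04, limma adjusted p = 0.00312). The gene lies on chromosome 12 from 86056745 to 86079041, minus strand (GRCm38, GENCODE M21), has a single annotated transcript, and shares exon bases with Gm37804 and Gm48008 on the other strand. Whether strand was used in counting was not stated, so reads of these genes cannot be told apart, and they were listed at no more than 0.557 and 0.141 FPKM. Since the RNA was taken from whole cultures, fewer cells of a kind and less RNA per cell cannot be told apart, here or for any gene below.

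Tgfb2, whose product needs betaglycan for strong receptor binding, did not pass the test. The Con libraries held 12.0, 12.3 and 12.5 FPKM, the TNF-α libraries 14.1, 13.7 and 13.5 FPKM and the TNF-α+WBT libraries 14.1, 13.3 and 14.2 FPKM. All libraries of both treated groups lay above all Con libraries. The log2 fold change with TNF-α was 0.17 (SE 0.05, interval 0.06 to 0.27), with an unadjusted p of 0.00600 and a limma adjusted p of 0.0913. Tgfb2 shares exon bases with Gm29491 on the other strand, which was at most 0.466 FPKM.

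The mixture of the 3 TGF-β ligand genes was also described within each library. The summed level of Tgfb1, Tgfb2 and Tgfb3 was 69.3 ± 0.831 FPKM in Con, 64.9 ± 0.145 FPKM after TNF-α and 65.2 ± 0.325 FPKM after TNF-α+WBT (SD, n = 3). Of this sum, Tgfb3 made up 38.5, 38.4 and 40.1% in Con, 32.8, 33.9 and 33.1% after TNF-α and 33.9, 31.7 and 32.3% after TNF-α+WBT. The Tgfb2 share was 17.2, 18.0 and 17.9% in Con, 21.7, 21.2 and 20.8% after TNF-α and 21.6, 20.4 and 21.6% after TNF-α+WBT. The Tgfb1 share was 44.3, 43.6 and 42.0% in Con, 45.5, 45.0 and 46.1% after TNF-α and 44.5, 47.9 and 46.1% after TNF-α+WBT. None of the 3 shares overlapped between Con and a treated group, while the 2 treated groups overlapped in each. The shares are parts of the same sum, so they do not vary independently. How often such shares fail to overlap in other sets of genes was not computed. The ratio of Tgfb3 to Tgfb2 was 2.20 ± 0.0626 in Con, 1.57 ± 0.0491 after TNF-α and 1.54 ± 0.0384 after TNF-α+WBT, and these ratios carry no test of their own.

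Inhba encodes the subunit of activin A, a related ligand that signals through its own receptors to the same SMADs. It was the lowest of the 9 genes, at 1.25, 1.15 and 1.36 FPKM in Con, 1.61, 1.42 and 1.48 FPKM after TNF-α and 1.36, 1.23 and 1.11 FPKM after TNF-α+WBT. The TNF-α libraries lay above the others, with a gap of less than 0.1 FPKM. The log2 fold change with TNF-α was 0.25 (interval -0.09 to 0.58, limma adjusted p = 0.483). The separation rested on 1 transcript in 1 library. The second TNF-α library listed Inhba-202 at 0.186 FPKM, where the other 8 listed it at 0, and without it the main transcript Inhba-201 stood at 1.23 FPKM there, within the Con range. An estimated 119.6 to 216.4 fragments per library lay behind Inhba, which gives a counting error of up to 9.14%, whereas the other 8 genes had at least 766.4 fragments per library.

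None of the receptor genes passed the test with TNF-α. Tgfbr1, the kinase that phosphorylates the SMADs, was at 8.20, 8.50 and 9.47 FPKM in Con, 8.57, 8.04 and 8.76 FPKM after TNF-α and 9.43, 8.98 and 8.32 FPKM after TNF-α+WBT. The groups overlapped, and the log2 fold change with TNF-α was -0.04 (interval -0.21 to 0.13, limma adjusted p = 0.862). Tgfbr3, which encodes betaglycan, the co-receptor that presents ligand to Tgfbr2, was at 11.9, 13.0 and 13.9 FPKM in Con, 11.3, 12.2 and 10.8 FPKM after TNF-α and 10.8, 12.8 and 11.7 FPKM after TNF-α+WBT. These groups overlapped as well, and the log2 fold change with TNF-α was -0.17 (interval -0.36 to 0.02, limma adjusted p = 0.368). Tgfbr3 shares exon bases with Gm43422 on the same strand, which was at 0.0519 to 0.162 FPKM.

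Tgfbr2, the ligand-binding receptor, was the most abundant receptor gene. Its levels were 45.1, 47.9 and 49.6 FPKM in Con, 50.6, 50.5 and 51.5 FPKM after TNF-α and 48.7, 49.6 and 50.1 FPKM after TNF-α+WBT. The TNF-α libraries lay above all others, and the lowest value was that of the first Con library. The log2 fold change with TNF-α was 0.10 (interval 0.01 to 0.19), with an unadjusted p of 0.0336 and a limma adjusted p of 0.252. Within libraries, Tgfbr2 stood at 3.68 ± 0.109 times Tgfbr3 in Con, 4.46 ± 0.313 times after TNF-α and 4.23 ± 0.327 times after TNF-α+WBT, with no overlap between Con and either treated group. It stood at 5.46 ± 0.203 times Tgfbr1 in Con, 6.02 ± 0.224 times after TNF-α and 5.57 ± 0.431 times after TNF-α+WBT. For that ratio TNF-α lay above Con without overlap, whereas TNF-α+WBT overlapped with Con. These receptor ratios carry no test, and how often such ratios fail to overlap in other pairs of genes was not computed.

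Ltbp1, the latency gene, did not pass the test either. It measured 62.8, 64.6 and 64.1 FPKM in Con, 69.3, 68.0 and 69.7 FPKM after TNF-α and 65.0, 62.9 and 65.3 FPKM after TNF-α+WBT. The TNF-α libraries lay above all others, and Con and TNF-α+WBT overlapped. The log2 fold change of TNF-α against Con was 0.11 (SE 0.03, interval 0.04 to 0.18), with an unadjusted p of 0.00527 that did not pass after adjustment (limma adjusted p = 0.0843).

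Tgfbi, named for its induction by TGF-β, encodes a secreted matrix protein that binds integrins and collagens. It lies on chromosome 13 from 56609523 to 56639562 on the plus strand (GRCm38, GENCODE M21), just downstream of the Tgfbi stretch printed above. Its levels were 143, 139 and 136 FPKM in Con, 53.1, 57.0 and 54.3 FPKM after TNF-α and 58.9, 60.4 and 62.2 FPKM after TNF-α+WBT. The Con libraries were far above all others, and the 3 groups did not overlap at all. TNF-α took the mean from 139 ± 3.57 to 54.8 ± 1.99 FPKM (SD, n = 3 each). The level fell by 60.7%, or -1.35 on the log2 scale (SE 0.04, limma adjusted p = 5.71e-07). The summed Schwann cell markers, of which none was at 0 in every library, moved in the same direction, at 956 to 1018 FPKM in Con, 791 to 841 with TNF-α and 844 to 873 with TNF-α+WBT. The summed fibroblast markers moved the other way, at 5110 to 5394 FPKM in Con, 5564 to 5823 with TNF-α and 5465 to 5590 with TNF-α+WBT, and 1 of their 18 was at 0 throughout. Single fibroblast markers did not all follow that sum, since TNF-α and Con did not overlap in 10 of the 18, with 6 higher and 4 lower. Among the lower ones, Pdgfrb was at 69.2 to 71.5 FPKM in Con and 48.1 to 49.3 FPKM with TNF-α. Of the 18, 9 are also in the pathway lists used below. The part of either in the Tgfbi result was not tested.

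Counted by overlap, 6 of the 9 genes had TNF-α and Con libraries that did not overlap, 4 higher (Tgfb2, Inhba, Tgfbr2 and Ltbp1) and 2 lower (Tgfb3 and Tgfbi). Over all genes tested 21.2% did not overlap, and among genes averaging 1 FPKM or more 30.1%. For a single gene, the smallest two-sided p of an exact permutation test between groups of 3 is 0.1.

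**Figure D2:**
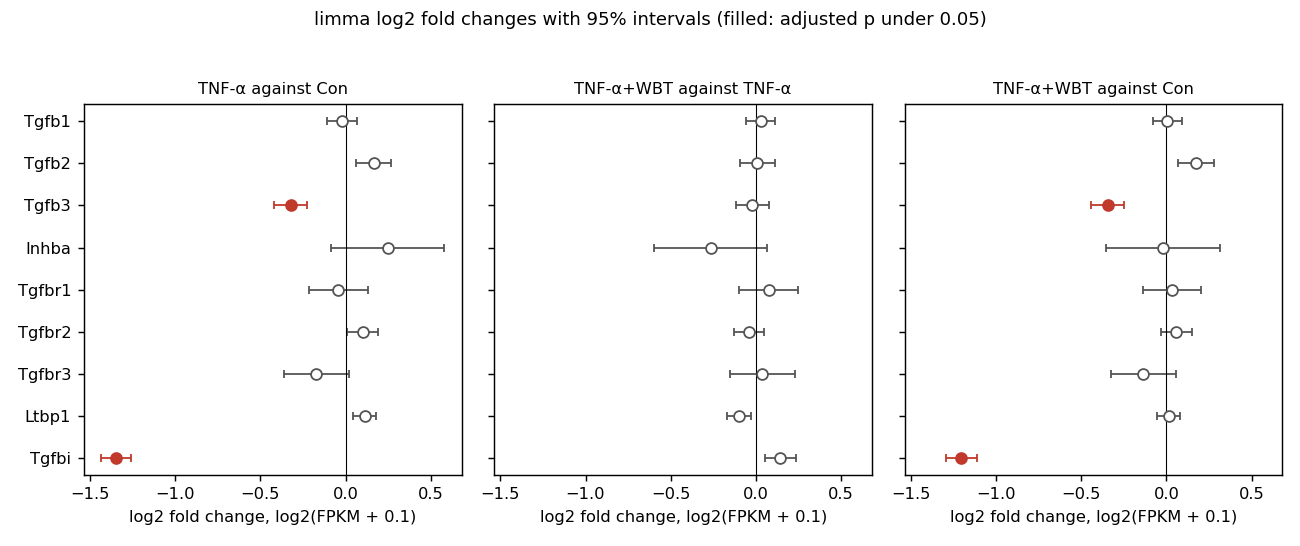
log2 fold changes of the 9 genes from limma on log2(FPKM + 0.1), with 95% intervals, in the 3 comparisons, where filled points have an adjusted p under 0.05. Tgfbi at -1.35 and Tgfb3 at -0.32 are filled for TNF-α against Con, no point is filled for TNF-α+WBT against TNF-α, and the same 2 genes are filled for TNF-α+WBT against Con.

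TNF-α+WBT was compared with TNF-α to ask whether WBT altered the response. None of the 9 genes was called, where 0.00393% of all genes (1 of 25417) was. At an unadjusted p under 0.05, limma picked 2 of the 9, Tgfbi and Ltbp1, and 6.31% of all genes. None of the 9 was past the study's thresholds, where 1.12% of all genes were. Tgfbi was higher in every TNF-α+WBT library than in every TNF-α library, with means of 60.5 ± 1.65 and 54.8 ± 1.99 FPKM, a log2 fold change of 0.14 (interval 0.05 to 0.23, unadjusted p = 0.00551, limma adjusted p = 0.588). Ltbp1 was lower in every TNF-α+WBT library, with means of 64.4 ± 1.30 and 69.0 ± 0.885 FPKM, a log2 fold change of -0.10 (interval -0.17 to -0.03, unadjusted p = 0.00978, limma adjusted p = 0.645).

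Inhba and Tgfbr2 were also lower without overlap in TNF-α+WBT than in TNF-α, so that 4 of the 9 genes did not overlap (11% of all genes, and 13.1% of those averaging 1 FPKM or more). The log2 fold change of Inhba was -0.27 (interval -0.60 to 0.07) and that of Tgfbr2 was -0.04 (interval -0.13 to 0.05). For Tgfb3, one of the genes that TNF-α lowered, the log2 fold change with WBT was -0.02 (interval -0.12 to 0.08, limma adjusted p = 0.967). The interval was -0.10 to 0.11 for Tgfb2 and -0.06 to 0.11 for Tgfb1. For the receptor genes it was -0.10 to 0.24 for Tgfbr1 and -0.16 to 0.23 for Tgfbr3. A p that misses the threshold does not show that the levels were equal, and these intervals give the sizes the data leave possible. This comparison uses the TNF-α libraries of the first comparison on its other side, so a library of that group that happened to be high or low moves both in opposite directions.

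TNF-α+WBT was also compared with Con, with the same Con libraries as above. Tgfbi and Tgfb3 were again the 2 genes called, both lower (22.2% of the 9, against 3.71% of all genes, 2.31% as higher and 1.4% as lower, and 6.46% of those averaging 1 FPKM or more). The log2 fold change was -1.20 for Tgfbi (SE 0.04, limma adjusted p = 1.66e-06) and -0.34 for Tgfb3 (SE 0.04, limma adjusted p = 0.00282). Tgfb2 was higher in every TNF-α+WBT library than in every Con library, at 0.17 on the log2 scale (interval 0.07 to 0.28, limma adjusted p = 0.0894). For Ltbp1 the log2 fold change was 0.01 (interval -0.06 to 0.08), and for Tgfbr2 it was 0.06 (interval -0.03 to 0.15). Tgfb2, Tgfb3 and Tgfbi were the 3 genes with an unadjusted p under 0.05 (14.7% of all genes) and the 3 that did not overlap with Con (19.5% of all genes, and 27% of those averaging 1 FPKM or more). Tgfbi alone was past the study's thresholds (2.29% of all genes).

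FPKM is scaled to transcript length, so levels can be ordered between genes. In Con the order of mean FPKM was Tgfbi, Ltbp1, Tgfbr2, Tgfb1, Tgfb3, Tgfbr3, Tgfb2, Tgfbr1 and Inhba, and only the neighbours Tgfbr3 and Tgfb2 had overlapping libraries. In both treated groups Ltbp1 came before Tgfbi and Tgfb2 before Tgfbr3, the rest kept their places, and no neighbours overlapped. By mean over the 9 libraries, the genes ranged from the 4.38th percentile (Inhba, 1.33 FPKM) to the 94.7th (Tgfbi, 84.9 FPKM) of the genes averaging 1 FPKM or more. The 5 genes whose log2 levels followed Tgfbi most closely over the 9 libraries, among 12685 genes, were Plxnb3 (Pearson r = 0.997), Sema4f (0.995), Gm45869 (0.995), Fam19a5 (0.994) and Gpc1 (0.994). Each of these was high in the 3 Con libraries and low in the other 6. For Plxnb3 the levels were 12.2 to 12.8 FPKM in Con, 3.53 to 3.78 FPKM with TNF-α and 4.21 to 4.58 FPKM with TNF-α+WBT. These correlations follow the 3 groups and are given as a description.

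The transcript table splits each gene's FPKM between its annotated transcripts, as estimated by the authors, and this split carries an error of its own that was not measured. In 5 genes (Tgfb1, Tgfb3, Inhba, Tgfbr1 and Tgfbi) a single transcript held 89.4 to 100% of the FPKM, and the other 4 genes had a second transcript with at least 10%. Ltbp1 was read mainly from its short form. Ltbp1-202, with 30 exons and a start at 75178911 downstream of the short-form stretch printed above, held 84.2% of the gene's FPKM. Ltbp1-201, the long form with 34 exons and a start at 75005568, held 14.0%. The short form was at 51.8, 54.4 and 51.7 FPKM in Con, 58.4, 58.4 and 58.5 FPKM after TNF-α and 54.3, 54.2 and 56.3 FPKM after TNF-α+WBT. Its TNF-α libraries lay above all others. The long form was at 10.2, 9.04 and 10.7 FPKM in Con, 9.59, 8.62 and 9.46 FPKM after TNF-α and 9.52, 7.36 and 8.28 FPKM after TNF-α+WBT, and all its groups overlapped. The separation of the TNF-α libraries seen for the gene was thus seen for the short form and not for the long form. Among transcripts averaging 1 FPKM or more, 20.3% did not overlap between TNF-α and Con and 17.9% between TNF-α+WBT and Con, and the share was 11.1% between the treated groups.

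Tgfbr2 showed a similar split. Tgfbr2-201 (7 exons, 38.2% of the gene) was at 14.8, 18.1 and 18.4 FPKM in Con, 20.1, 19.3 and 21.4 FPKM after TNF-α and 18.7, 19.6 and 19.1 FPKM after TNF-α+WBT, so that both treated groups lay above Con. Tgfbr2-202 (8 exons, 61.8%) was at 30.4 ± 0.706 FPKM in Con, 30.6 ± 0.569 FPKM after TNF-α and 30.4 ± 0.565 FPKM after TNF-α+WBT, with overlapping libraries. In Tgfbr3 the transcript Tgfbr3-204, annotated as a retained intron with 10.2% of the gene, was at 1.69, 1.92 and 2.44 FPKM in Con, 1.06, 1.11 and 0.237 FPKM after TNF-α and 0.142, 1.36 and 1.04 FPKM after TNF-α+WBT. Con lay above both treated groups. The coding transcript Tgfbr3-201 was at 9.15 ± 0.400 FPKM in Con, 9.87 ± 0.602 FPKM after TNF-α and 10.3 ± 0.370 FPKM after TNF-α+WBT, and its share of the gene was 65.7 to 73.7% in Con, 81.4 to 95.2% with TNF-α and 81.5 to 98.1% with TNF-α+WBT. The gene's mean was lower in the treated groups than in Con, whereas that of its main coding transcript was not. A smaller transcript annotated as coding, Tgfbr3-202, held 8.75% of the gene, below the 10% used for naming. It was at 1.76 ± 0.484 FPKM in Con, 0.775 ± 0.434 FPKM after TNF-α and 0.624 ± 0.495 FPKM after TNF-α+WBT, with Con above both treated groups. For Tgfb2, Tgfb2-201 (60.9%) and Tgfb2-206 (31.1%) each overlapped in all 3 comparisons, although their gene sum did not overlap with Con.

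**Figure D3:**
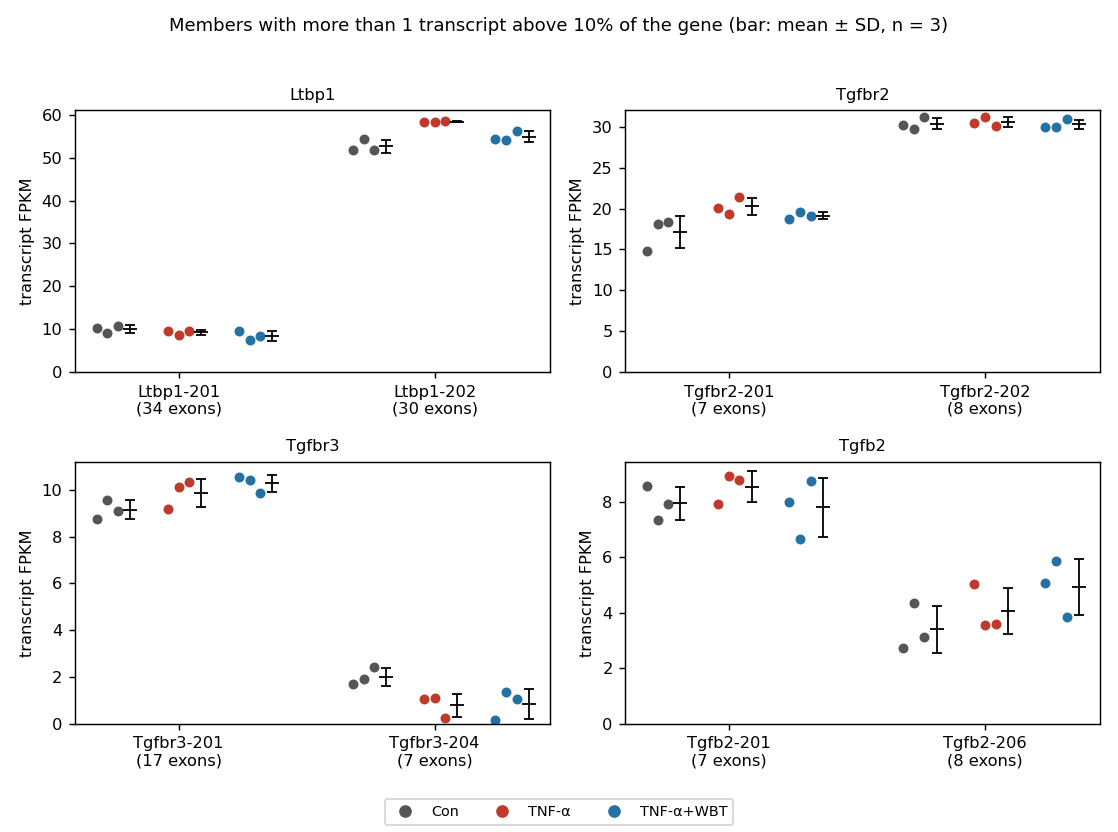
Transcript FPKM in each library for the 4 genes with a second transcript at 10% or more of the gene, with the mean ± SD (n = 3) as a bar beside the points of each group. The Ltbp1-202 points with TNF-α, at 58.4 to 58.5 FPKM, lie above the others, while Ltbp1-201 overlaps in all groups, and Tgfbr3-204 is highest in Con.

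Beyond these 9 genes, 113 further genes of the pathway were listed by role, and 104 of them were tested. The lists were written with earlier results of these data known. With TNF-α, 17 were called higher and 10 lower against Con, 26% of those tested. Of all genes 4.86% were called, and of those averaging 1 FPKM or more 8.37%. The median log2 fold change of the 104 was 0.05. With TNF-α+WBT against TNF-α limma called 0 of them, and at an unadjusted p under 0.05 it picked 0 higher and 8 lower, where 6.31% of all genes had such a p. Against Con, TNF-α+WBT had 12 higher and 9 lower (20.2%, against 3.71% of all genes and 6.46% of those averaging 1 FPKM or more).

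The target genes were the longest list, with 33.3% called with TNF-α against Con, while the highest share called was 50% of the 8 other receptors and co-receptors. Of all genes 4.86% were called, and of those averaging 1 FPKM or more 8.37%. With TNF-α 13 of 51 rose, 4 fell and 34 did not pass the test, with a median log2 fold change of 0.11. Serpine2, a serine protease inhibitor, went up from 21.8 ± 2.02 to 57.9 ± 8.07 FPKM, or 1.40 on the log2 scale (limma adjusted p = 0.000162). Tpm1, an actin-binding tropomyosin, rose from 153 ± 2.54 to 218 ± 0.911 FPKM (0.51, adjusted p = 3.10e-05). Tgm2, a protein cross-linking enzyme, and Pdgfb, a growth factor subunit, also rose, at 0.48 and 0.40 on the log2 scale. Tnc, the matrix glycoprotein tenascin C, fell from 68.1 ± 2.66 to 29.2 ± 0.148 FPKM (-1.22, adjusted p = 8.14e-07). Postn, the matrix protein periostin and a close relative of Tgfbi, fell from 242 ± 9.14 to 161 ± 4.31 FPKM (-0.59, adjusted p = 0.000176). The called targets thus went both ways, as Tgfbi fell together with Tnc and Postn while Serpine2 and Tpm1 rose.

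With TNF-α+WBT, Tnc was at 30.7 ± 0.714 FPKM, Postn at 166 ± 8.97 FPKM, Serpine2 at 54.7 ± 5.30 FPKM, Tpm1 at 207 ± 5.42 FPKM and Tgm2 at 66.5 ± 1.22 FPKM. Against TNF-α none of these passed after adjustment. Tgm2 (-0.10 on the log2 scale, limma unadjusted p = 0.0156), Tpm1 (-0.07, unadjusted p = 0.0450) and Tnc (0.07, unadjusted p = 0.0841) did not overlap with TNF-α, each lying on the Con side of it. The genes named here had been picked by their p against Con. In the comparison with TNF-α, 10 of the 51 tested targets did not overlap, where 11% of all genes and 13.1% of those averaging 1 FPKM or more did not. The smallest unadjusted p of the list in this comparison, named after its value was seen, was that of Ccn1, a matrix-associated signalling protein, at 77.4 ± 3.13 FPKM with TNF-α and 67.6 ± 2.70 FPKM with TNF-α+WBT (-0.19, unadjusted p = 0.00252, limma adjusted p = 0.473). These differences rest on the same TNF-α libraries as the comparison with Con. Against Con, 9 targets rose and 4 fell (25.5% of 51). The share called was 3.71% of all genes and 6.46% of those averaging 1 FPKM or more. Junb, an AP-1 subunit, was among those that rose, from 68.8 ± 2.66 to 93.7 ± 6.63 FPKM (0.44, limma adjusted p = 0.00250), and it was at 94.1 ± 2.11 FPKM with TNF-α alone (0.45 against Con, limma adjusted p = 0.00176).

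**Figure D4:**
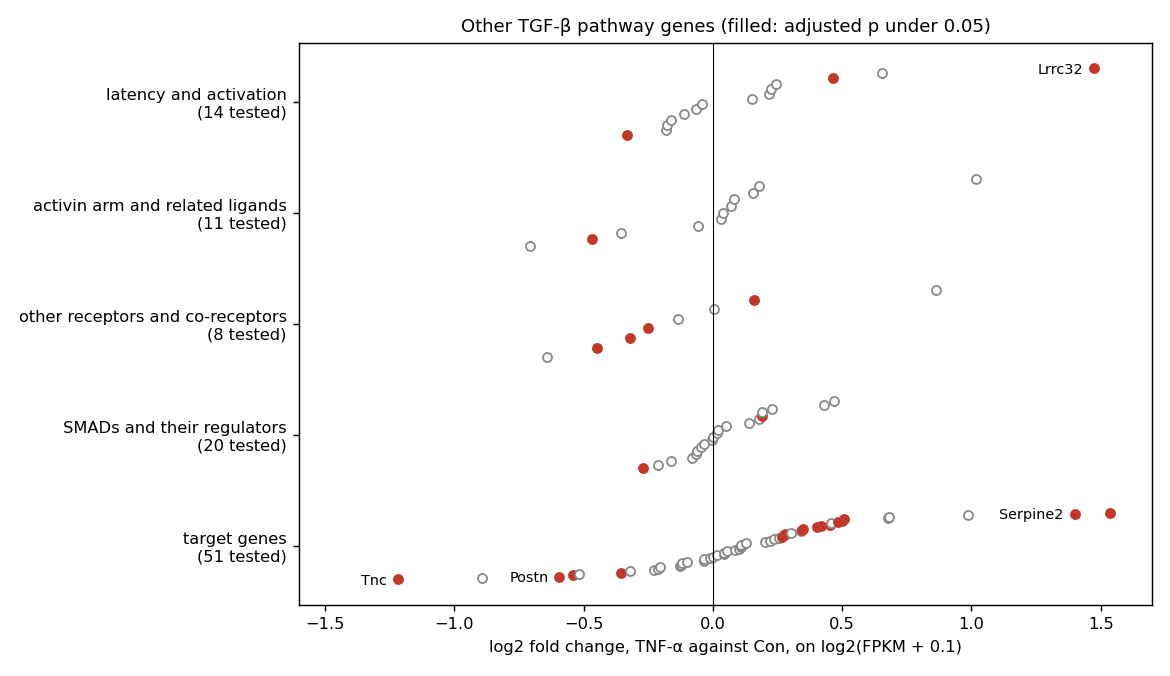
log2 fold change of TNF-α against Con for the 104 tested pathway genes, 1 point per gene, grouped by list, where filled points have an adjusted p under 0.05 (the vertical spread within a list only separates the points). Filled points stand on both sides of 0 among the target genes, with Serpine2 at 1.40 and Tnc at -1.22, and the Lrrc32 point is a fitted value for a gene at 0.00640 FPKM in Con.

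In the latency and activation list, 2 of 14 rose with TNF-α and 1 fell (21.4%). The share called was 4.86% of all genes and 8.37% of those averaging 1 FPKM or more. Emilin1, a matrix glycoprotein that restrains the processing of the TGF-β precursor, rose from 101 ± 10.1 to 139 ± 5.44 FPKM (0.46, limma adjusted p = 0.00749). Plat, the tissue plasminogen activator, fell from 67.4 ± 0.877 to 53.4 ± 1.86 FPKM (-0.33, adjusted p = 0.00228). Lrrc32, which encodes the cell-surface anchor of latent TGF-β called GARP, was called higher at very low levels, 0.00640 ± 0.00567 FPKM in Con and 0.196 ± 0.0190 FPKM with TNF-α. Its call was lost in 8 of 18 alternative settings, among them a pseudocount of 1 and each left-out library of either group, while those of Emilin1 and Plat held in all 19. With TNF-α+WBT against Con, 2 were called higher (Emilin1 and Lrrc32) and 2 lower (Plat and Thbs1). These made up 28.6% of the list's tested genes, against 3.71% of all genes and 6.46% of those averaging 1 FPKM or more. Thbs1, which encodes the latency-opening thrombospondin, was at 30.5 ± 1.18 FPKM in Con and 25.4 ± 1.07 FPKM here (-0.26, limma adjusted p = 0.0184). In that comparison the call was lost in 7 of 19 alternatives for Emilin1, 7 of 18 for Lrrc32, 6 of 19 for Thbs1 and 1 of 19 for Plat.

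Among the other receptors and co-receptors, 1 of 8 rose with TNF-α and 3 fell (50%). The share called was 4.86% of all genes and 8.37% of those averaging 1 FPKM or more. Vasn, a membrane protein that traps TGF-β, fell from 40.7 ± 1.11 to 29.8 ± 1.88 FPKM (-0.45, limma adjusted p = 0.00196). Cd109, a co-receptor known to restrain TGF-β signalling, fell from 41.1 ± 1.17 to 34.5 ± 1.43 FPKM (-0.25, adjusted p = 0.0158). The neuropilins bind semaphorins and also TGF-β, and Nrp1 was at -0.32 (adjusted p = 0.0274) and Nrp2 at 0.16 (adjusted p = 0.0497). The call of Vasn held in all 19 alternatives, whereas it was lost in 4 for Cd109, 7 for Nrp1 and 14 for Nrp2, with an adjusted p of up to 0.267 for Nrp2. With TNF-α+WBT against Con, Vasn and Nrp1 were called lower and none higher (25% of the 8). The share called was 3.71% of all genes and 6.46% of those averaging 1 FPKM or more. The call held in all 19 alternatives for Vasn and was lost in 12 for Nrp1 (limma adjusted p up to 0.145).

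Of the 20 SMADs and their regulators, 1 was called higher and 1 lower with TNF-α (10%, against 4.86% of all genes and 8.37% of those averaging 1 FPKM or more). Smad3, the receptor-activated SMAD that binds DNA, was at 29.2 ± 1.34 FPKM in Con and 33.3 ± 0.457 FPKM with TNF-α (0.19, limma adjusted p = 0.0305). Tgif1, a SMAD co-repressor, was at 44.6 ± 1.82 and 37.0 ± 2.56 FPKM (-0.27, adjusted p = 0.0292). Of 19 alternatives, 11 lost the call of Smad3 (adjusted p up to 0.179) and 7 that of Tgif1 (up to 0.123). With TNF-α+WBT against Con, Smad3 was called higher (0.19, limma adjusted p = 0.0404) and none was called lower. That was 5% of the 20, against 3.71% of all genes and 6.46% of those averaging 1 FPKM or more. The call of Smad3 was lost in 12 of 19 alternatives (limma adjusted p up to 0.213). In the activin arm, 1 of 11 was called with TNF-α (9.09%, against 4.86% of all genes and 8.37% of those averaging 1 FPKM or more). It was the activin type II receptor gene Acvr2a, which fell from 6.57 ± 0.206 to 4.73 ± 0.0997 FPKM (-0.47, limma adjusted p = 0.00851). Acvr2a was also the 1 call of that list with TNF-α+WBT against Con, at -0.41 (adjusted p = 0.0196), where 3.71% of all genes and 6.46% of those averaging 1 FPKM or more were called. That second call was lost in 5 of 19 alternatives (adjusted p up to 0.0733), and the first in none.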

How the data were processed

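Poly(A) RNA of 9 cultures (3 per group) was sequenced as paired-end libraries with a TruSeq kit. The authors deposited FPKM values per gene and per transcript. A workflow drawing in the study shows HISAT2, StringTie and Ballgown; versions, annotation and genome build are not given in the sources used here. Positions came from GENCODE M21 (GRCm38), matched by identifier, and upstream sequences from RefSeq for GRCm38.p6.

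FPKM values carry no depth, and depth was taken from the smallest spacing between values of single-transcript genes; 54.9 to 59.1% of low values lay within 0.1 of a whole fragment, so fragment numbers are approximate. Tested genes were the 25417 with a value over 0 in 3 or more libraries. They were fitted on log2(FPKM + 0.1), which understates changes of low genes, in 1 limma 3.58.1 model (lmFit, eBayes with trend, R 4.3.3) over the 9 libraries, and p-values were Benjamini-Hochberg adjusted over all of them. Figures and sequence searches used Python 3.11.15, pandas 2.3.3, numpy 2.4.6 and matplotlib 3.10.9. The model was also run on simulated data, with changes larger than those of the 9 genes, so that run does not bear on the detection of small changes.

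The study calls the libraries biological replicates without saying how the cultures were separated, so p-values measure only the spread between them. The 9 genes and the pathway and marker lists were chosen with earlier results of these data known. Named pathway genes are, per list and comparison, up to 6 with the smallest p among those called; named transcripts hold at least 10% of their gene; genes most like a member are the 5 with the highest Pearson r with the member of smallest p. Alternatives changed the pseudocount, filter, trend, groups in the model, scaling, the use of transcript sums and the replicate block, and left out each library in turn.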

Additional observations from a re-analysis of the deposited data

How the results depend on the processing

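The calls on the 9 genes held. Tgfbi and Tgfb3 were called lower, and no other of the 9 was called, in both comparisons with Con under each of 19 alternatives, and none of the 9 was called between TNF-α+WBT and TNF-α. For TNF-α against Con the log2 fold change ranged from -1.37 to -1.32 for Tgfbi and from -0.34 to -0.30 for Tgfb3, with limma adjusted p-values of at most 6.85e-05 and 0.0330.

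Same-numbered libraries of different groups had correlations of -0.0674 to 0.0953 between their deviations from the group mean. For differently numbered libraries the range was -0.105 to 0.0966. The 2 ranges are alike, but with 3 libraries per group they do not decide whether the cultures were paired. With the replicate block, 893, 0 and 701 genes were called in the comparisons of TNF-α with Con, TNF-α+WBT with TNF-α and TNF-α+WBT with Con, where 1236, 1 and 942 were called without it, and 2, 0 and 2 of the 9 genes were.

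Counts over all genes moved more. Between TNF-α+WBT and TNF-α, 11 genes were called with a pseudocount of 0.01, 7 without the trend, 2 with only the 2 groups in the model and 2 with transcript sums, and 0 to 10 with 1 library left out. Leaving out 1 library gave 823 to 1111 genes for TNF-α against Con and 579 to 826 for TNF-α+WBT against Con. The number of pathway genes called for TNF-α against Con was 27, and 16 without the trend. For TNF-α+WBT against Con it was 21, and it was 13 without the trend, 13 with only the 2 groups and 13 to 20 with 1 library left out. These are counts and do not say whether the same genes were called.

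Signs changed only in values near 0. Quantile normalization gave -0.013 for Tgfb1 between TNF-α+WBT and Con. With 1 library left out, Tgfbr1 ranged from -0.085 to 0.018 for TNF-α against Con, and for TNF-α+WBT against Con Tgfbr1 ranged from -0.012 to 0.091, Tgfb1 from -0.017 to 0.032 and Inhba from -0.087 to 0.049. For TNF-α+WBT against TNF-α, Tgfb2 ranged from -0.0092 to 0.038, Tgfb3 from -0.049 to 0.0022 and Tgfbr3 from -0.026 to 0.097. The cause of these moves was not tested. Depth limits Inhba most, and splits between transcripts rest on the authors' estimates.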
